A study of Mus musculus with 36 samples.

Results

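AMPA receptors are the ion channels that carry most fast excitatory signals in the brain, and this account follows the mRNAs of their subunits and of proteins that escort and anchor them in mice that lost Dicer in neurons. The genes are the 4 channel subunits Gria1, Gria2, Gria3 and Gria4, the auxiliary subunits Cacng2, Cacng3 and Cacng8, and the scaffold and trafficking proteins Akap5, Grip1 and Nsf. They were set by name, with earlier results of these data known. The Affymetrix arrays read a transcript with sets of short oligonucleotides, called probe sets, and every one annotated to exactly 1 of these genes was taken. That gave 25 probe sets for 10 genes, of 34945 single-gene probe sets for 18193 genes in all: 4 for Nsf, 3 each for Gria2, Gria4, Cacng2 and Akap5, 2 each for Gria1, Gria3, Cacng8 and Grip1, and 1 for Cacng3. The study itself had named AMPA receptors as a theme of these cortex arrays, so the interest in these genes is not independent of the data.

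An AMPA receptor is a ring of GRIA subunits whose mixture sets conductance and calcium entry. The Gria2 subunit, once its mRNA has been edited by an ADAR enzyme, keeps calcium out. Transmembrane AMPA receptor regulatory proteins such as the products of Cacng2 (stargazin), Cacng3 and Cacng8 carry the channels to the synapse and slow their closing. Akap5 anchors kinases and a phosphatase next to the receptor, Grip1 binds the tail of Gria2 and Gria3 subunits, and Nsf is an ATPase of vesicle fusion that also binds Gria2 and keeps it at the surface.

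Dicer cuts microRNA precursors into mature microRNAs, which lower the stability or translation of mRNAs that carry a match to their seed. Several such products have been described as acting on AMPA receptor mRNAs: miR-181a on Gria2, and miR-137, miR-92a and miR-501 on Gria1. Their mature sequences are shown because they connect the deleted enzyme to these genes. They were not measured on these arrays, and target sites were not searched. The sequences below come from RefSeq on GRCm38.p6, are written from the 5′ end, and have the seed, bases 2 to 8, in capitals.
mmu-miR-181a-5p: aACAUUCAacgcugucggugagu
mmu-miR-137-3p: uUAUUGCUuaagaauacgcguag
mmu-miR-92a-3p: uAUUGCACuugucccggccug
mmu-miR-501-3p: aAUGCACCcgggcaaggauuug
The first is encoded at chr1:137966468-137966490 and chr2:38852741-38852763, both on the plus strand. The second lies at chr3:118433901-118433923, plus strand. The third is encoded at chr14:115044476-115044496, plus strand, and at chrX:52741854-52741874, minus strand. The fourth lies at chrX:7241270-7241291, minus strand. No 2 of the 4 share a seed.

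All mice had the same genotype on a C57BL/6J background, Cre+;Dicer lox/lox, with a Camk2a-CreERT2 transgene. This transgene drives a tamoxifen-dependent Cre from the Camk2a promoter, so an exon of Dicer can be removed from Camk2a-expressing neurons, while glia and other neurons keep it. The cKO mice were given tamoxifen (10 mg in total) at 8 weeks of age, and the control mice were given the sunflower oil and ethanol vehicle. Tamoxifen is thus present in one arm only, and its own effect and that of the deletion cannot be told apart on these arrays. RNA of cortex, hypothalamus and hippocampus was taken 4 or 8 weeks after treatment, with 3 animals in each of 12 groups (36 arrays). The 4-week and 8-week mice are different animals. Of the cortex animals, 11 also gave hypothalamus arrays, though a replicate number does not always name the same animal in both tissues. The arrays labelled hippocampus came from other animals, so their comparison with cortex is also one of different mice.

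The values are log2 intensities that the authors normalised separately for each tissue, so a level is compared within a tissue only. Pairwise correlations between arrays of a tissue lay between 0.981 and 0.998. Probe sets of Dicer1 did not pass the threshold in any cKO minus control comparison (+0.45 and +0.10 on the log2 scale in cortex at 4 weeks). Whether they lie in the removed exon is unknown here. The paper reports that Dicer mRNA seemed lower in cKO hippocampus at an exon outside the removed one. No such fall was called on these arrays, so they do not show the loss of Dicer. In cortex, 3 arrays had been found to stand apart by an earlier examination of these data: replicate 3 of both 4-week groups and cKO replicate 2 among the 8-week mice. Cortical and hypothalamic marker genes were present under their labels (Slc17a7 at 9.19 to 9.52 and Tbr1 at 6.35 to 8.34 in cortex, Pmch at 13.3 to 13.6 in hypothalamus). The hippocampus label did not hold in the same way. In 11 of the 12 arrays labelled hippocampus, Neurod6 lay at 2.68 to 3.31, Slc17a7 at 3.74 to 4.41, Lct at 3.24 to 3.66 and Spink8 at 3.31 to 3.82, all markers of forebrain excitatory or hippocampal neurons. Of the 7 measured genes of the hippocampal list, 1 lay above the array's median in every group, Wfs1 (group means 8.90 to 9.28). Camk2a (9.78 to 10.5) and Nrgn (group means 10.12 to 10.97), which excitatory neurons express, were also well detected. Only cKO replicate 1 at 8 weeks carried Neurod6, Slc17a7, Lct and Spink8, at 9.05, 7.56, 8.51 and 8.36. Tcf7l2 (8.82 to 10.6) and Shox2 (9.90 to 10.4), chosen after their values were seen, were high in the other 11. These arrays are called labelled hippocampus here, and values at 8 weeks are given with and without cKO replicate 1.

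In cortex at 4 weeks, 2 AMPA receptor probe sets passed an FDR of 15% (limma, adjusted over all 34945 probe sets), both lower in cKO mice. They belong to Akap5 and Gria3. A share of 8% of the 25 probe sets stands against 2.88% of all probe sets called in this comparison, and 0.509% called lower. In bulk tissue, fewer cells of a type and less RNA per cell cannot be told apart. At an unadjusted p under 0.05 there were 7 of 25 (28%), against 18.8% of all. Groups did not overlap for the same 2 of 25 (8%), against 17.7% of all and 3.37% lower. Of the 25, 12 were higher and 13 lower in cKO mice, with a median change of -0.02 against 0.09 over all probe sets. The receptor genes therefore did not share one direction, and both calls were lost under several other settings, given in the closing section.

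Among the channel subunits, Gria3 had the largest change of the 25 probe sets. Gria3 lies at chrX:41400819-41678601 (GRCm38.p6). Its probe set 1420563_at read 6.61, 6.84 and 8.77 in cKO mice, against 8.85, 8.97 and 8.91 in controls. cKO replicates 1 and 2 were far below every control, while replicate 3 lay just under them. The mean was 7.41 ± 1.18 in cKO and 8.91 ± 0.06 in control mice (SD, n = 3 each), a difference of -1.50 (SE 0.43, 95% CI -2.43 to -0.57, limma adjusted p = 0.149) or 2.83-fold. The other Gria3 probe set, 1434728_at, read 8.72, 8.87 and 8.59 in cKO and 9.53, 9.58 and 8.68 in control mice. It differed by -0.54 (SE 0.22, adjusted p = 0.233), and it was control replicate 3, not a cKO array, that lay among the values of the other group. The 2 probe sets of this gene thus point the same way but single out different animals.

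Gria1 (chr11:57011571-57330244), the subunit whose synaptic delivery accompanies potentiation, had probe sets of opposite sign. Probe set 1435239_at read 10.06, 10.39 and 10.37 in cKO and 9.90, 10.21 and 10.06 in control mice, a difference of +0.22 (SE 0.12, adjusted p = 0.334). Probe set 1448972_at read 9.07, 9.32 and 10.02 in cKO and 9.95, 10.12 and 9.71 in control mice, a difference of -0.46 (SE 0.22, adjusted p = 0.276). For both, the groups overlapped.

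Gria2 (chr3:80681450-80804227) had negative differences at all 3 of its probe sets, none past the threshold. Probe set 1421970_a_at lay at 10.68 to 10.89 in cKO and 10.79 to 10.98 in control mice, a difference of -0.09 (SE 0.10, adjusted p = 0.628). Probe set 1434146_at differed by -0.69 (SE 0.33, adjusted p = 0.276), with 8.76, 8.17 and 8.42 in cKO and 9.50, 9.70 and 8.21 in control mice. Here again control replicate 3 lay among the cKO values. Probe set 1453098_at differed by -0.34 (SE 0.23), from 7.66, 7.32 and 7.86 in cKO against 8.25, 8.23 and 7.38 in control mice. Gria4 (chr9:4417893-4796234), the subunit of interneurons and early development, differed by +0.22, +0.12 and -0.12 (SE 0.14, 0.11 and 0.15) over its 3 probe sets, with adjusted p between 0.402 and 0.669 and overlapping groups in each. Cortex control arrays of 1421351_at (+0.22) and 1440891_at (-0.12) lay at the 44.4 to 52.0 and 46.2 to 57.5 percentile. That overlaps the range of the hypothalamic marker Pmch in cortex (38.2 to 54.4), so their opposite signs are to be read with care.

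The auxiliary subunits gave no call in cortex at 4 weeks. For Cacng2 (chr15:77991919-78120220), the stargazin gene, 1453363_at read 6.42, 6.63 and 7.62 in cKO and 7.59, 7.34 and 7.90 in control mice, a difference of -0.72 (SE 0.25, adjusted p = 0.186). As for Gria3 1420563_at, the cKO array nearest the controls was replicate 3. The other Cacng2 probe sets, 1420596_at and 1440210_at, differed by +0.17 and -0.05 (SE 0.16 each). Cacng3 (chr7:122671744-122769393) read 7.85, 7.48 and 7.31 in cKO and 6.89, 7.03 and 7.63 in control mice, a difference of +0.36 (SE 0.21, adjusted p = 0.358). Both probe sets of Cacng8 (chr7:3394042-3416266), whose product is enriched in hippocampal synapses, were higher, by +0.30 (SE 0.13, adjusted p = 0.239) and +0.24 (SE 0.12, adjusted p = 0.309), with overlapping groups.

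Of the scaffold and trafficking genes, Akap5 (chr12:76324617-76334517) held the other call. Probe set 1436142_at read 6.07, 6.40 and 5.94 in cKO and 7.10, 7.32 and 6.41 in control mice. The groups did not overlap, but cKO replicate 2 (6.40) lay right beside control replicate 3 (6.41). The means were 6.14 ± 0.24 and 6.95 ± 0.48 (SD, n = 3 each), a difference of -0.81 (SE 0.22, 95% CI -1.28 to -0.34, limma adjusted p = 0.142) or 1.75-fold. Akap5 1447301_at went the other way, with 5.86, 5.76 and 5.49 in cKO against 5.36, 5.22 and 5.52 in control mice (+0.34, SE 0.13, adjusted p = 0.221). Its level was modest, with cortex control arrays at the 48.9 to 54.8 percentile. The hypothalamic marker Pmch lay at the 38.2 to 54.4 percentile in cortex, so the opposite direction of this probe set is to be read with care. Akap5 1431717_at differed by +0.06 (SE 0.16).

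Nsf (chr11:103821782-103954056) gave no call. Probe set 1422455_s_at read 9.41, 9.47 and 10.84 in cKO and 10.67, 10.67 and 10.74 in control mice (-0.79, SE 0.29, adjusted p = 0.202), and cKO replicate 3 was the highest of the 6. By its suffix this probe set may match transcripts of more than 1 gene. Probe set 1422456_at stayed within 11.86 to 12.07 in all 6 arrays (+0.04, SE 0.09). The remaining Nsf probe sets differed by -0.02 and +0.14, and those of Grip1 (chr10:119453238-120087267) by -0.04 and +0.04, all with overlapping groups.

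**Figure D1:**
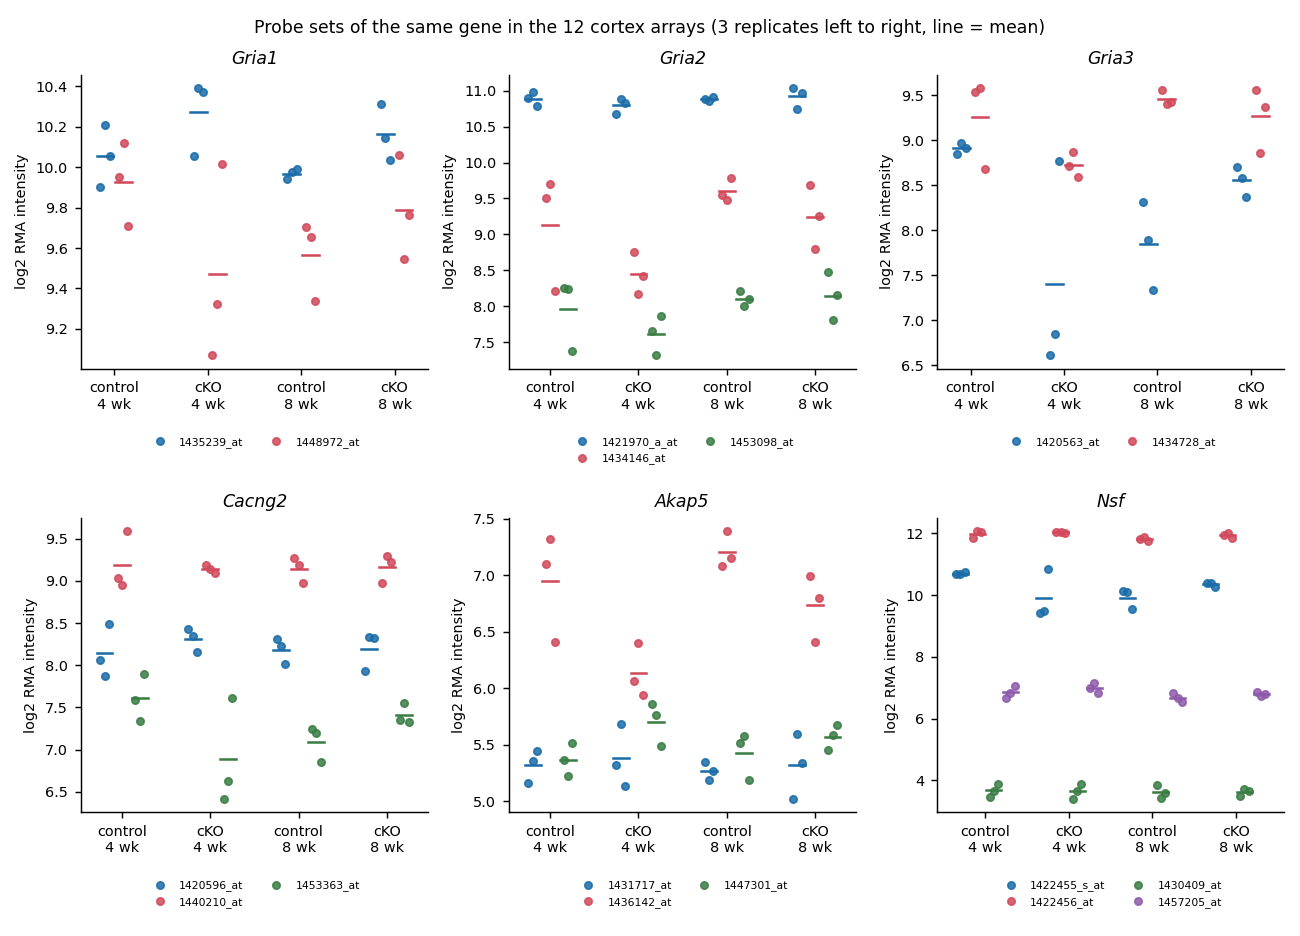
Log2 RMA intensity (y axis) of every probe set of Gria1, Gria2, Gria3, Cacng2, Akap5 and Nsf in the 12 cortex arrays, with 3 replicates of each group from left to right and a line at the group mean. At 4 weeks Gria3 1420563_at, Cacng2 1453363_at and Nsf 1422455_s_at are low in cKO replicates 1 and 2, while the other probe sets of Cacng2 and Nsf are not.

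Whether probe sets of one gene moved apart was tested directly, by taking each array's value minus the mean of the gene's other probe sets, for the 24 probe sets of the 9 genes with more than 1. In cortex at 4 weeks the signs differed within 6 of 9 genes, and the distance between a gene's lowest and highest change had a median of 0.67 and was largest for Akap5 (1.15). Signs differed within 5 of 9 genes in hypothalamus at both times, and within 3 and 2 of 9 in labelled hippocampus at 4 and 8 weeks. Genes near 0 count too, such as Grip1 in cortex (-0.04 and +0.04). The share over all genes was not worked out, so the 6 are not read as a trait of these genes. None of the 24 passed the FDR of 15%, against 0.0388% of 25762 probe sets (10) of genes with several. At an unadjusted p under 0.05 there were 7 of 24 (29.2%), against 18.9% of all. Both probe sets of Gria1 are among the 7 and count the same difference, since one is subtracted from the other. The lowest adjusted p belonged to Akap5 1447301_at (own minus others +0.71, SE 0.18, adjusted p = 0.161), followed by Akap5 1436142_at (-1.01, SE 0.27, adjusted p = 0.165) and Gria1 (0.67 between its probe sets, SE 0.20, adjusted p = 0.171). In the other comparisons of cKO with control mice none of the 24 was called either, as was none of the 25762 (0%). Unadjusted p under 0.05 were 1 of 24 in cortex at 8 weeks (4.37% of all), 2 of 24 in hypothalamus at 4 weeks (3.95%) and 2 at 8 weeks (4.25%), and 3 of 24 in labelled hippocampus at 4 weeks (8.27%) and 0 at 8 weeks (5.81%). In hypothalamus both are the pair of Gria3 at either time, and in labelled hippocampus 2 of the 3 are the pair of Gria1, so each pair is again 1 difference counted under both probe sets. Where on the transcript each probe set lies was not used here.

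Across the 12 cortex arrays, probe sets of a gene often did not follow one another. The correlation was 0.18 for the pair of Gria1, 0.24 for the pair of Gria3 and -0.60 between Akap5 1436142_at and 1447301_at. Gria4 1440891_at ran against both other Gria4 probe sets (-0.67 each). Some pairs did follow each other, such as Cacng2 1420596_at and 1440210_at (0.86) and Gria2 1434146_at and 1453098_at (0.91). In the 12 arrays labelled hippocampus the Gria1 pair correlated at 0.92, with 1 array, cKO replicate 1 at 8 weeks, highest for both. These values describe 12 arrays of 4 groups each and carry no test.

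Several of the probe sets that stood out in cortex moved with one of 2 other measures of the same arrays. Malat1, a long RNA held in the nucleus, read 9.11, 9.03 and 12.31 in the cKO group at 4 weeks, while its controls had 12.61, 12.42 and 12.23. At 8 weeks it was 12.43, 11.94 and 11.78 in cKO against 11.57, 11.31 and 10.21 in control mice. As for Gria3, cKO replicates 1 and 2 at 4 weeks were low, and control replicate 3 at 8 weeks came next. Over the 12 cortex arrays the correlation with Malat1 was 0.987 for Gria3 1420563_at, 0.947 for Nsf 1422455_s_at, 0.920 for Cacng2 1453363_at and 0.902 for Gria1 1448972_at. These 4 of 25 (16%) reached 0.8, against 3.47% of all probe sets. Other probe sets of the same genes did not follow Malat1 (0.311 for Gria3 1434728_at, 0.00483 for Nsf 1422456_at, -0.398 for Cacng2 1420596_at and -0.077 for Gria1 1435239_at). In the arrays labelled hippocampus the first 3 again correlated with Malat1 at 0.936, 0.904 and 0.895, and there a single array, cKO replicate 3 at 4 weeks, was lowest for Malat1 (8.54, against 9.78 to 10.8 in the others), Gria3 (7.03), Nsf (10.98) and Cacng2 (7.33). In hypothalamus Gria3 1420563_at correlated at 0.789, with control replicate 1 at 4 weeks lowest for both (12.4 and 8.08), while Nsf 1422455_s_at and Cacng2 1453363_at did not (0.0322 and 0.141). What part this measure had in the results was not tested.

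The other measure was RNA quality, read as the signal at the 3′ end of actin minus that at its 5′ end. In cortex at 4 weeks the cKO arrays had 1.12, 1.12 and 1.14 and the controls 1.30, 1.33 and 1.08, so control replicate 3 lay with the cKO arrays. At 8 weeks they had 1.35, 1.18 and 1.28 and the controls 1.37, 1.48 and 1.34, with cKO replicate 2 lowest. Akap5 1436142_at followed it at 0.904, Gria2 1434146_at at 0.893, Gria3 1434728_at at 0.884 and Gria4 1440891_at at 0.806, which makes 4 of 25 (16%) at 0.8 or more against 3.90% of all. Gria4 1421351_at (-0.912) and Cacng8 1451864_at (-0.810) ran against it. Both of these Gria4 probe sets lay at levels that overlap those of Pmch in cortex. A list of 16 leptomeningeal genes, which mark the membranes around the brain, also moved with the groups: 17 of its 30 probe sets were called higher in cKO cortex at 4 weeks, none lower (2.88% of all called), and the mean level of the list was 7.58 to 7.72 in cKO and 6.74 to 7.24 in control mice. Its leading genes were Ptgds and Mgp, and 13 or 14 of the 16 genes lay above the array's median in each cortex group. Akap5 1436142_at and Gria3 1434728_at ran against that list at -0.861 and -0.812. Genes that mark the cortex moved the other way, with 2 of 14 probe sets called lower and none higher, 11 of 14 lower and a median of -0.18. The mean level of these 6 genes was 9.00 to 9.27 in cKO and 9.33 to 9.37 in control mice, all 6 above the array's median in each group. One of them, Tbr1, a transcription factor of deep-layer excitatory neurons, read 6.74, 6.58 and 6.35 in cKO and 7.59, 7.70 and 7.03 in control mice, with no overlap. Of 22 probe sets of an excitatory neuron list, which shares genes with the cortex list, Tbr1 among them, 2 were called lower and none higher, with a median of -0.01 and mean levels of 8.49 to 8.64 in cKO and 8.50 to 8.77 in control mice. The part of RNA quality, of meningeal tissue and of cell composition in the AMPA receptor results was not tested.

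**Figure D2:**
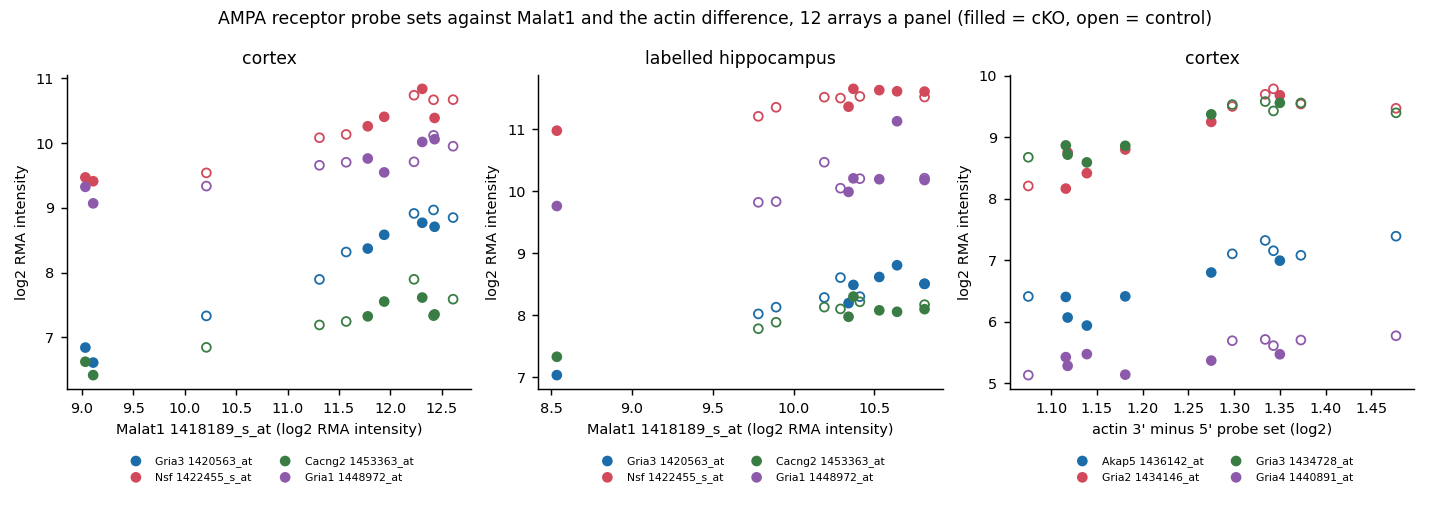
Log2 RMA intensity of AMPA receptor probe sets (y axis) against the log2 intensity of Malat1 in cortex (left) and labelled hippocampus (middle) and against the log2 difference of the actin 3′ and 5′ probe sets in cortex (right). Each point is 1 of 12 arrays, filled for cKO and open for control mice. Gria3 1420563_at rises with Malat1 in both tissues, and Akap5 1436142_at rises with the actin difference.

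Leaving out the 3 cortex arrays that stand apart changed how many of these genes were called, but it did so for all genes. Of the 25 probe sets, 17 were then called at 4 weeks, 8 higher and 9 lower, against 45.6% of all probe sets. Gria3 1420563_at then differed by -2.18 (adjusted p = 0.000939), Nsf 1422455_s_at by -1.23 (0.00191), Gria2 1434146_at by -1.14 (0.00472), Akap5 1436142_at by -0.98 (0.00257) and Cacng2 1453363_at by -0.94 (0.00289). Cacng3, Akap5 1447301_at and Cacng2 1420596_at were then called higher, by +0.71, +0.52 and +0.42. cKO replicate 3 is the array that lies with the controls for Gria3 1420563_at, and control replicate 3 the one that lies with the cKO mice for Akap5 1436142_at, so leaving them out widens these differences by construction. Omitting cKO replicate 3 alone gave 6 calls (19.0% of all probe sets), and omitting control replicate 3 alone gave 13 (30.2%). Without them the probe sets of Akap5 and Cacng2 still pointed in opposite directions.

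**Figure D3:**
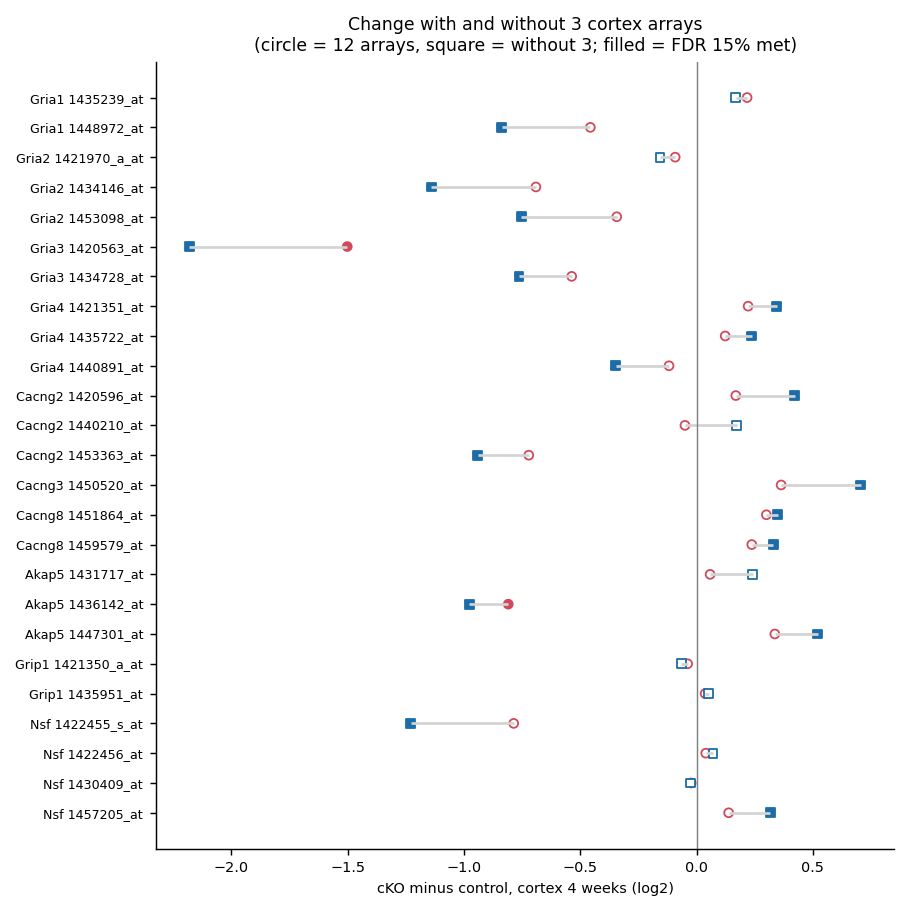
cKO minus control difference (x axis, log2) of the 25 probe sets in cortex at 4 weeks with all 12 arrays (circles) and without the 3 arrays that stand apart (squares), filled where the FDR of 15% was met. With all arrays 2 symbols are filled, and without the 3 arrays 17 are, to both sides of 0.

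At 8 weeks no AMPA receptor probe set was called in cortex, and none of the 34945 probe sets was (0%). Of the 25, 19 were higher and 6 lower, and 1 had an unadjusted p under 0.05 by limma (4.75% of all): Gria4 1440891_at, which read 5.47, 5.14 and 5.37 in cKO and 5.70, 5.77 and 5.61 in control mice (-0.37, SE 0.15, adjusted p = 0.919). Its level overlapped that of Pmch in cortex (control arrays at the 46.2 to 57.5 percentile), so little is read from its difference. The groups did not overlap for 7 of 25 (28%), against 15.3% of all. Gria3 1420563_at was now higher in cKO mice, with 8.71, 8.58 and 8.37 against 8.32, 7.90 and 7.33 (+0.71, SE 0.43, adjusted p = 0.919). For this probe set the control mice at 8 weeks also differed from those at 4 weeks, by -1.06 (SE 0.43, adjusted p = 0.706). Akap5 1436142_at was still lower, at 6.99, 6.41 and 6.80 against 7.08, 7.39 and 7.15 (-0.47, SE 0.22, adjusted p = 0.919). Signs again differed within 6 of 9 genes.

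The difference between the times was tested as an interaction, 8-week minus 4-week change. No AMPA receptor probe set passed (limma, 0.00286% of all did), and 4 of 25 (16%) had an unadjusted p under 0.05 against 10.1% of all. These were Gria3 1420563_at (+2.21, SE 0.61, adjusted p = 0.413), Nsf 1422455_s_at (+1.22, SE 0.42), Cacng2 1453363_at (+1.04, SE 0.36) and Gria1 1448972_at (+0.68, SE 0.31). They are the same 4 that followed Malat1. Within the cKO mice, none changed from 4 to 8 weeks past the threshold (0% of all), with the lowest adjusted p for Akap5 1436142_at (+0.60, SE 0.22, adjusted p = 0.248), and 7 of 25 (28%) had an unadjusted p under 0.05 against 16.5% of all. Within the control mice none did either (0.00572% of all), with 2 of 25 under 0.05 against 6.97% of all, Gria3 1420563_at and Nsf 1422455_s_at.

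**Figure D4:**
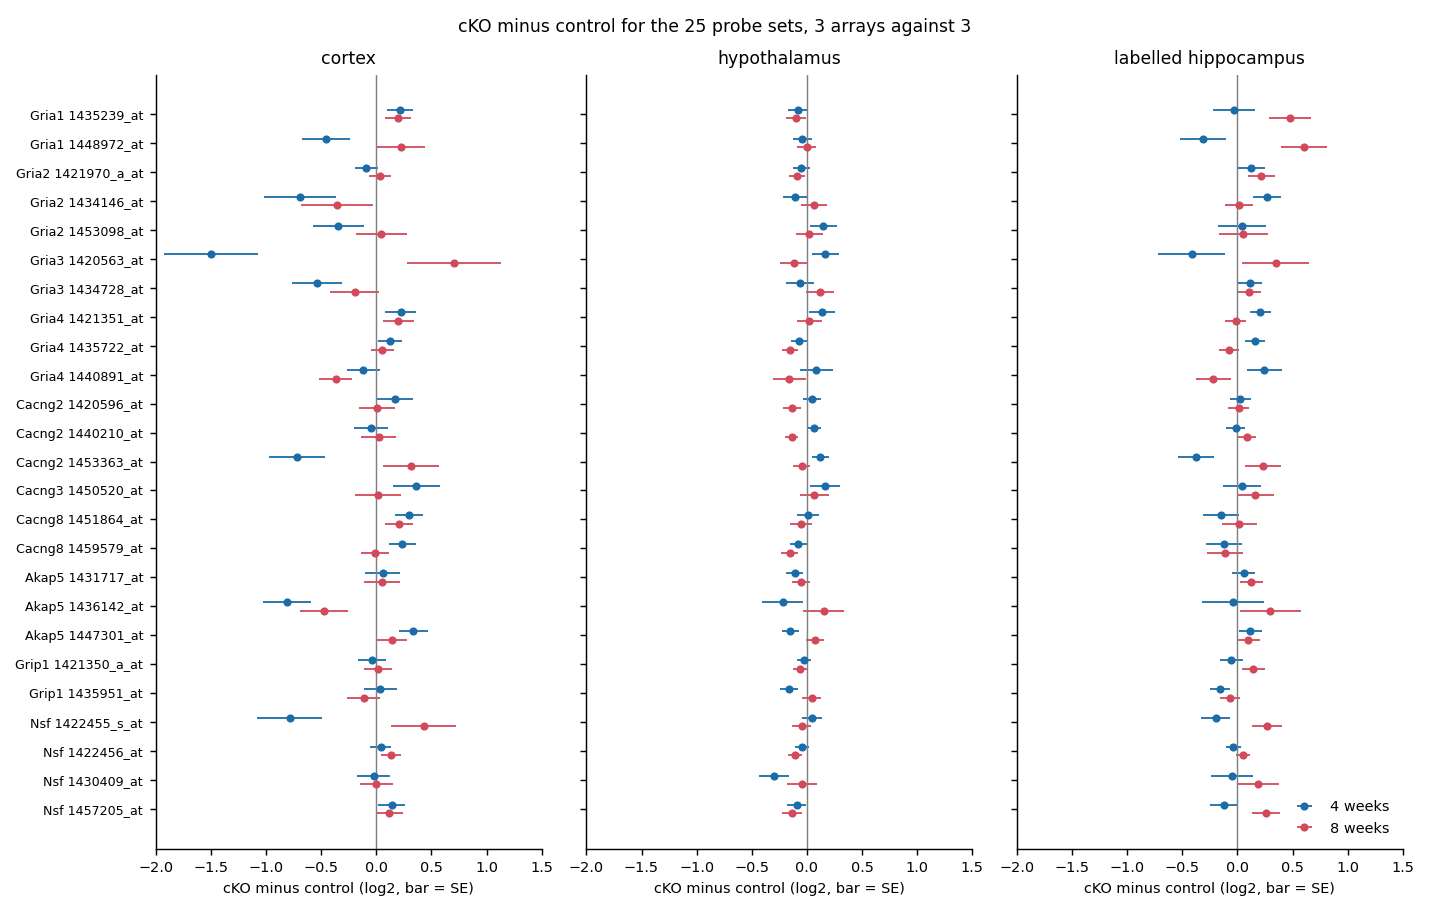
cKO minus control difference (x axis, log2, bars are standard errors, 3 arrays against 3) of the 25 probe sets in cortex, hypothalamus and labelled hippocampus at 4 weeks (blue) and 8 weeks (red). The hypothalamic differences lie between -0.30 and 0.17, while those of cortex at 4 weeks reach -1.50.

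In hypothalamus, all AMPA receptor differences were small. At 4 weeks they ran from -0.30 to +0.17 and at 8 weeks from -0.16 to +0.15, with standard errors of 0.06 to 0.19. None was called, against 0% of all probe sets at 4 weeks and 0.00858% at 8 weeks, and 1 of 25 had an unadjusted p under 0.05 at each time (3.07% and 5.87% of all): Nsf 1430409_at at 4 weeks (-0.30, SE 0.14) and Cacng2 1440210_at at 8 weeks (-0.14, SE 0.06). The Nsf probe set read low, with control arrays at the 20.3 to 28.0 percentile, so little is read from its difference. The other Nsf probe sets differed by +0.04, -0.04 and -0.09 at 4 weeks. Gria3 1420563_at read 8.70, 8.56 and 8.47 in cKO and 8.08, 8.61 and 8.53 in control mice at 4 weeks. The difference was +0.17 (95% CI -0.10 to 0.44). Groups did not overlap for 3 of 25 (12%) at 4 weeks, against 6.85% of all, and for 5 of 25 (20%) at 8 weeks, all lower, against 12.1% of all. At that time microglial genes stood apart: 15 of the 17 probe sets of 11 genes were higher at an unadjusted p under 0.05 and none was called, with mean levels of 8.98 to 10.65 in cKO and 8.69 to 9.00 in control mice and all 11 genes above the array's median. Their part in the small differences was not tested.

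The changes in cortex and hypothalamus at 4 weeks were compared in 1 fit that took account of animals giving both tissues. The difference passed for 3 of 25 probe sets (12%), against 6.27% of all. Gria3 1420563_at changed by 1.66 more towards lower values in cortex (difference -1.66, SE 0.47, adjusted p = 0.112), and Cacng2 1453363_at by 0.83 more (difference -0.83, SE 0.27, adjusted p = 0.133). Akap5 1447301_at differed the other way in the fit (+0.49, SE 0.15, adjusted p = 0.124), but in hypothalamus it read only 3.86, 3.78 and 3.81 in cKO and 4.08, 3.87 and 3.95 in control mice. That is as low as markers taken as absent elsewhere (control arrays at the 13.9 to 17.2 percentile), so no direction is read from its hypothalamic values. Akap5 1436142_at, called in cortex, did not differ past the threshold between the tissues (-0.61, SE 0.30, adjusted p = 0.266). All 3 calls were lost without the term for the animal, and also when single 4-week arrays such as cortex cKO replicate 1 or hypothalamus cKO replicate 1 were left out.

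In the arrays labelled hippocampus no AMPA receptor probe set was called at either time (0% of all probe sets). At 4 weeks the differences ran from -0.42 to +0.26, 2 of 25 had an unadjusted p under 0.05 (6.07% of all), and groups did not overlap for 3 of 25 (12%, against 10.5% of all). Cacng2 1453363_at had the lowest p, with 8.08, 7.98 and 7.33 in cKO and 8.17, 8.22 and 8.13 in control mice (-0.38, SE 0.16, adjusted p = 0.821). Without cKO replicate 3 the difference was -0.15. Gria3 1420563_at read 8.62, 8.20 and 7.03 against 8.51, 8.30 and 8.29 (-0.42, SE 0.30), and its groups overlapped. All 3 Gria4 probe sets were higher, by +0.16 to +0.24 (SE 0.09 to 0.16, adjusted p 0.821 to 0.872). Markers of other cells differed between the same groups. Leptomeningeal genes were lower at 27 of 30 probe sets, 11 of them at an unadjusted p under 0.05 and none called, with a median of -0.44, and their mean level was 6.79 to 7.82 in cKO and 7.43 to 8.03 in control mice. Microglial genes were lower at 17 of 17, 1 at an unadjusted p under 0.05, with a median of -0.27, and their mean level was 8.14 to 8.32 in cKO and 8.23 to 9.15 in control mice, highest in control replicate 2. At least 13 of the 16 leptomeningeal and all 11 microglial genes lay above the array's median in both groups. Their part in the AMPA receptor differences was not tested. Compared with cortex at 4 weeks none differed past the threshold (0.61% of all did), and the lowest p belonged to Gria2 1434146_at, lower in cKO cortex and higher here (difference -0.95, SE 0.38, adjusted p = 0.364).

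At 8 weeks the largest differences in labelled hippocampus rested in good part on the array that alone carried forebrain markers. Gria1 1448972_at read 11.13, 10.21 and 10.18 in cKO and 10.05, 9.83 and 9.82 in control mice, and Gria1 1435239_at read 11.14, 10.38 and 10.23 against 10.12, 10.01 and 10.21. With all arrays they differed by +0.60 (SE 0.21) and +0.47 (SE 0.19), both at an adjusted p of 0.816. Without cKO replicate 1 they differed by +0.29 and +0.20 (adjusted p = 0.892). These were also the 2 of 25 with an unadjusted p under 0.05 with all arrays (5.71% of all), and groups did not overlap for 5 of 25 (20%, against 13.5% of all). Of the 25 probe sets 20 were higher with that array and 15 without it, and the median fell from 0.10 to 0.06. For Gria1 1448972_at the cKO mice were all lower than the controls at 4 weeks (10.19, 9.99 and 9.76 against 10.21, 10.20 and 10.47) and all higher at 8 weeks. That interaction did not pass the threshold (+0.92, SE 0.30, adjusted p = 0.681, 0% of all called).

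Levels in control mice were set side by side by the percentile a probe set holds among all probe sets of its array, a description with no test over 6 control arrays a tissue. Gria1 1435239_at, Gria2 1421970_a_at and Nsf 1422456_at lay above the 94th percentile in every tissue (Gria2 1421970_a_at at 97.9 to 98.1 in cortex, 97.0 to 97.6 in hypothalamus and in labelled hippocampus). Akap5 1436142_at was highest in cortex (64.6 to 76.7), against 44.8 to 50.6 in hypothalamus and 38.0 to 45.8 in labelled hippocampus, where the last 2 ranges overlap. Akap5 1447301_at had the same order in part, with 48.9 to 54.8 in cortex and 13.9 to 20.4 in the others. Cacng3 was highest in cortex (71.6 to 79.0), then in labelled hippocampus (59.6 to 65.4) and then in hypothalamus (44.3 to 52.0), with no overlap. Gria4 1440891_at was lowest in cortex (46.2 to 57.5) and did not separate the others (67.0 to 73.6 in hypothalamus, 66.9 to 72.4 in labelled hippocampus).

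Other partners of AMPA receptors, not all of them proteins of the receptor complex, were taken from a list of 48 genes, of which 46 had 99 probe sets. In cortex at 4 weeks 3 rose and 1 fell (4 of 99, close to the 2.88% of all probe sets called in this comparison), and the median was 0.08 against 0.09 over all probe sets. A probe set of Adar, an enzyme that edits adenosines in RNA, rose by 0.46 (SE 0.11, adjusted p = 0.114). A probe set each of Shisa6 and Cnih2, both auxiliary subunits of the receptor, rose by 0.44 (SE 0.11, adjusted p = 0.134) and 0.38 (SE 0.10, adjusted p = 0.142). A probe set of Shisa9, an auxiliary subunit that alters desensitisation, fell by 0.61 (SE 0.17, adjusted p = 0.147). Mean levels in cKO and control mice were 6.88 and 6.42 for Adar and 9.46 and 9.08 for Cnih2. Those of Shisa6 (4.53 and 4.09) and Shisa9 (4.77 and 5.38) did not exceed the range of the hypothalamic marker Pmch in cortex (4.54 to 5.64). Little is therefore read from the differences of Shisa6 and Shisa9. That range spans cKO arrays too, and the paper names Pmch among genes raised in cKO cortex at 4 weeks. In the other 5 comparisons of cKO with control mice none of the 99 was called. The lowest p there belonged to Syt1, Shisa9, Cacng5, Adar and again Syt1, with adjusted p between 0.488 and 0.999. NMDA, kainate and delta receptor genes with their auxiliary subunits (14 genes, 28 probe sets) gave no call in any comparison. In cortex at 4 weeks 18 of the 28 were higher and 10 lower, with a median of 0.10.

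For each gene, the 2 probe sets of other genes with the closest pattern over the 12 cortex arrays were found for its probe set of highest mean. Gria3 1434728_at was matched most closely by Hsd17b4 (Pearson r = 0.991) and Agtpbp1 (0.990), Cacng3 by Mllt1 (0.982) and Plvap (0.974), and Akap5 1436142_at by Snd1 (0.982) and Ager (0.977). The lowest best match was that of Grip1 1435951_at, with Fbxw11 (0.898). The best matches of Gria1, Gria2, Gria4, Cacng2, Cacng8 and Nsf were Slc26a4, Otp, Ggt7, Pfkm, Nsg1 and Spata5l1, with r between 0.917 and 0.964. These are the highest of 34945 probe sets on arrays that share the same groups and depth of signal, and carry no test.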

How the data were processed

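Arrays of 12 cortex, 12 hypothalamus and 12 labelled hippocampus samples (Affymetrix mouse arrays, 3 animals a group) were analysed. The deposited values are log2 intensities that the authors made with RMA (version not given in the sources used here), separately for each tissue, so levels of tissues are not on a common scale. They were used without further normalisation. Of 45101 probe sets, 34945 are annotated to 1 gene and were all tested, 932 to several and 9160 to none; 64 are controls. Detection calls were not used here.

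limma 3.58.1 (R 4.3.3) was run on the 4 groups of each tissue together, two-sided, with Benjamini-Hochberg adjustment and the FDR of 15% of the study's methods. The number of arrays limits the precision, and with 3 arrays against 3 the smallest exact permutation p is 0.1. Cortex and hypothalamus were compared with duplicateCorrelation (statmod 1.5.0) by animal. The pipeline was tested on simulated data. Named are every probe set of the 10 genes, called probe sets of 2 lists (without a call the 2 of lowest p) and the closest genes. The genes and lists, the 3 cortex arrays and the measures beside the results were chosen with earlier results of these data known.

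Alternatives were other tested sets, 2 scalings, array weights, other variance models, a 5% FDR, the methods' t-test, blocks and the omission of arrays. No reported test within a tissue was paired, and a block of the replicate number was run only as an alternative, in every tissue. Deviations of like-numbered cKO and control arrays from their group means correlated above 0.1 in each pair in hypothalamus at 8 weeks (0.156, 0.193 and 0.217). In no other tissue and time did they do so. That animals of like replicate number were linked is not stated. RefSeq (GRCm38.p6) gave gene positions and microRNA sequences.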

Additional observations from a re-analysis of the deposited data

Results flagged for a closer look

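For 3 probe sets the change at 4 weeks differed between cortex and hypothalamus by the test of that difference (limma, FDR 15%): Gria3 1420563_at (-1.66), Cacng2 1453363_at (-0.83) and Akap5 1447301_at (0.49). The last rests on hypothalamic values as low as those of absent markers (control arrays at the 13.9 to 17.2 percentile).

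Probe sets with groups apart in opposite directions in 2 comparisons were also flagged. Each probe set was looked at over several pairs of comparisons. In single comparisons of cKO with control mice, 6.85% to 17.7% of all probe sets had groups apart. The share of all that were apart in opposite directions was not worked out, so these cases are only listed. Gria3 1420563_at in cortex was lower in all cKO mice at 4 weeks and higher in all at 8 weeks, a difference of 2.21 that missed the threshold in the interaction test (adjusted p = 0.413). Gria1 1448972_at in labelled hippocampus did the same, a difference of 0.92 that also missed it (adjusted p = 0.681) and that rests in part on cKO replicate 1 at 8 weeks. Cacng2 1453363_at at 4 weeks was lower in labelled hippocampus (-0.38) and higher in hypothalamus (+0.12), a difference of 0.50 that was not tested. Without cKO replicate 3 the labelled hippocampus value was -0.15. Nsf 1422456_at at 8 weeks was higher in labelled hippocampus (+0.05) and lower in hypothalamus (-0.11), a difference of -0.16 that was not tested either.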

How the results depend on the processing

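The 2 calls in cortex at 4 weeks depended on the settings. Both stayed when only probe sets of higher intensity were tested, and with 1 probe set per gene in the number of the study's methods. The count was 0 with all probe sets other than controls, with arrays centred on their median (0.844% of all called), after quantile normalisation (0.796%), with only the groups compared (0%), at an FDR of 5%, by the methods' t-test and with the replicate number as a block (0%). Deviations of like-numbered cortex arrays did not correlate above 0.1 in each pair. It was 1 (Akap5 1436142_at) with trended and robust variance, and 17 both with array weights (45.4%) and without the 3 arrays that stand apart (45.6%). Over the omission of each array it ran from 0 to 13. It was 6 (19.0% of all called) without cKO replicate 3 and 13 (30.2%) without control replicate 3 at 4 weeks. It was 2 without cKO replicate 2 at 8 weeks and 0 without any other. Gria3 1420563_at and Akap5 1436142_at stayed lower under both scalings. A change of sign was counted only for a value called in the main or the alternative setting, and there was none. Values uncalled in both could not count, and the 3374 alternative values include many of these. Their signs did change in places, as for Cacng2 1440210_at in cortex at 4 weeks (-0.17 to +0.17 over the alternatives). With array weights and without the 3 arrays, respectively, the counts for 8 minus 4 weeks in cKO became 10 and 12 (28.7% and 39.1% of all). Over omissions they ran from 0 to 4, with 4 without replicate 3 of cKO or of control at 4 weeks (13.4% and 10.9%). They were also above 0 without cKO replicate 2 at 8 weeks. For 8 minus 4 weeks in control they became 2 and 2 (2.67% and 1.01%), and for the interaction 9 and 11 (24.8% and 31.2%). Over omissions these ran from 0 to 2 and from 0 to 4. Both were above 0 only without cKO replicate 3 at 4 weeks (2.15% and 7.82% of all). For probe sets apart from the others of their gene the counts became 17 and 17 (40.1% and 42.4% of all). Over omissions they ran from 0 to 12, with 12 without cKO replicate 3 and 11 without control replicate 3 at 4 weeks (24.5% and 22.7%). They were also above 0 without cKO replicate 2 at 8 weeks. For cortex minus hypothalamus they became 14 and 17 (35.2% and 41.2%). Over omissions they ran from 0 to 12, with 5 and 12 without cortex replicate 3 of cKO and control at 4 weeks (21.6% and 29.1%). They were 0 without cortex replicate 1 or 2 of either 4-week group, any hypothalamus cKO array at 4 weeks or hypothalamus control replicate 1 or 2. For cortex minus hippocampus they became 10 and 12 (22.1% and 25.9%). Over omissions they ran from 0 to 5, above 0 without cortex replicate 3 of cKO (2, 5.39% of all) or of control (5, 14.7%) at 4 weeks. Cortex minus hypothalamus gave 0 at an FDR of 5% and without the animal block. The counts of 0 in cortex at 8 weeks, hypothalamus and labelled hippocampus stayed 0 under every alternative run, the replicate block included. The causes were not tested.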
